A study of Rattus norvegicus with 3 samples.

Results

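Citrate is made inside mitochondria, burned there or sent out, and split in the cytosol into the acetyl-CoA from which fatty acids and sterols are built. It also binds calcium and is held in mineralised tissue, and in people loss of the plasma membrane citrate transporter SLC13A5 leads to epilepsy with defective enamel. Ameloblasts lay down enamel. In the rodent incisor these epithelial cells are renewed from the cervical loop, secrete matrix first, and then remove it while mineral fills the space. Genes of citrate transport and metabolism were followed over these stages in rat enamel organs. The 7 genes were taken from a list of names: Slc13a5, Slc25a1, Cs, Aco1, Acly, Idh1 and Idh2. All 7 were found among the 16516 genes of the authors' deposited table.

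RNA was sequenced from cells of the maturation stage, cells of the secretory stage and cells of the cervical loop, taken by dissection out of enamel organs of 5 Wistar Hannover rats. The labels give the rats no treatment and no genotype, and their age is not given in the sources used here. The protocol names dissection and no sorting of cells. Each stage is held as 1 least-squares mean per gene, so no spread stands beside a level, and any spread between libraries enters only through the p-values and false discovery rates (FDR) that the authors computed. The unit of the means is not given in the sources used here, nor is it known whether they are scaled to gene length, so levels are compared between stages and not between genes. A gene passed when its FDR in the authors' deposited table was below 0.05. No read counts per gene were used, so the depth behind each value is unknown. Direction was read from the ratio of 2 stage means. The 3 pairs of stages share their means, so the pairs are not independent of one another.

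The stage labels were checked against markers. Of 4 secretory markers, all 4 were higher in secretory cells than in cervical loop cells in the authors' deposited table, and of 5 maturation markers, all 5 were higher in maturation than in secretory cells. Of 5 cervical loop markers, 4 were lower in secretory than in cervical loop cells in the authors' deposited table, while Shh did not pass (39.0 and 152, FDR = 0.0849). Of all genes, 16.5% were higher and 25.2% lower in secretory than in cervical loop cells, and 21.8% were higher in maturation than in secretory cells. Mesenchyme RNA was present at every stage: Col1a1 stood at 5618, 5218 and 6385 in the cervical loop, secretory and maturation means of the authors' deposited table. The median gene had a log2 ratio of -0.14 when secretory cells were set against the cervical loop, -0.12 when maturation cells were, and 0.0032 in maturation over secretory cells. Changes against the cervical loop are to be read relative to these shifts.

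Transcription start regions are shown for the 3 members that were higher than the cervical loop in both later stages, so that the letters can be set beside the levels. Each is the 250 bases before the start of the gene in RefSeq, on build GRCr8, written 5′ to 3′ on the gene's strand, where all 7 members had an entry. Capitals mark matches on either strand to the GC box, searched as GGGCGG, and to the box named for its letters CCAAT. The regions are chr10:57388849-57389098 on the minus strand for Slc13a5, chr11:96559804-96560053 on the plus strand for Slc25a1 and chr7:1348139-1348388 on the plus strand for Cs.
Slc13a5: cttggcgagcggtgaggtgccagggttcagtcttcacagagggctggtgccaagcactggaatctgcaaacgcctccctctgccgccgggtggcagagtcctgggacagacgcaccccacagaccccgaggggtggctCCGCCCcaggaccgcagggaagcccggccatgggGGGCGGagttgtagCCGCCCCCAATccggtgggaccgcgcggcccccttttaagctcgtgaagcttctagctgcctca
Slc25a1: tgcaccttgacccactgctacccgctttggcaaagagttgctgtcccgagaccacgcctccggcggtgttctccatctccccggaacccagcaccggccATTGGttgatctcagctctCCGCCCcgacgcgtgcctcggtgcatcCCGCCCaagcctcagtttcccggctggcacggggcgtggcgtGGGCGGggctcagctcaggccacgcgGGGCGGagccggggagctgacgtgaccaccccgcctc
Cs: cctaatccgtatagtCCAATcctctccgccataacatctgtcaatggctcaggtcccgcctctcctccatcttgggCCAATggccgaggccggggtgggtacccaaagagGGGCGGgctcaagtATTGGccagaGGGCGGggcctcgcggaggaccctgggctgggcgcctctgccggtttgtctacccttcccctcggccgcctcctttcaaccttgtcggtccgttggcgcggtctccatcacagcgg
The GC box was found in all 7 members and the CCAAT box in 5 of 7, the exceptions being Aco1 and Idh1. Of all 33469 promoters of the same length, 30.5% held the GC box and 34.0% the CCAAT box. The regions of the members held 64% to 69.6% G or C bases. The shares among promoters of like G and C content were not computed, so no excess in the members is read from these counts. In Slc13a5 a GC box on the minus strand and a CCAAT box lay side by side with no base between them. No member held the TATA box (TATAAA), the E-box (CACGTG), the core of the sterol regulatory element (TCACNCCAC), the cAMP response element (TGACGTCA) or the palindromic NRF1 motif, searched on both strands. These motifs were held by 12.9%, 5.59%, 0.974%, 1.59% and 0.762% of all promoters, in the same order. A match describes these letters and no site of binding.

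The carriers came first. Slc13a5 encodes the sodium-coupled transporter that brings citrate into cells through the plasma membrane. In the authors' deposited table its mean was 11.5 in the cervical loop, 688 in secretory cells and 248 in maturation cells. The secretory and maturation means were both far above the cervical loop mean. Secretory cells were 60.1-fold higher than the cervical loop (log2 ratio 5.91, FDR = 0.00163) and maturation cells 21.6-fold higher (log2 ratio 4.43, FDR = 0.00184) in the authors' deposited table. With means of 0.1 or less raised to 0.1, the secretory ratio ranked 2 from the top of all 16516 genes and the maturation ratio against the cervical loop ranked 73. Maturation cells stood at 248, against 688 in secretory cells, and this difference of 2.78-fold did not pass (FDR = 0.168 in the authors' deposited table). The order of the later stages was therefore not resolved for Slc13a5, and a value that misses the threshold does not show that they are alike. In bulk RNA, more cells that express a gene and more RNA per cell cannot be told apart.

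Slc25a1 encodes the carrier that exchanges citrate for malate across the inner mitochondrial membrane. Its mean climbed through all stages, at 11.8 in the cervical loop, 18.9 in secretory cells and 40.3 in maturation cells in the authors' deposited table. Every neighbouring pair in that order differed. Secretory cells were 1.60-fold higher than the cervical loop (FDR = 0.00741), and maturation cells were 2.13-fold higher than secretory cells (FDR = 0.00118), in the authors' deposited table. From the cervical loop to maturation the difference was 3.41-fold (FDR = 0.000154 in the authors' deposited table). The secretory call of Slc25a1 was lost with Benjamini-Yekutieli adjustment (FDR = 0.0762), and its FDR ranged over 0.00652 to 0.0762 between alternatives.

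**Figure D1:**
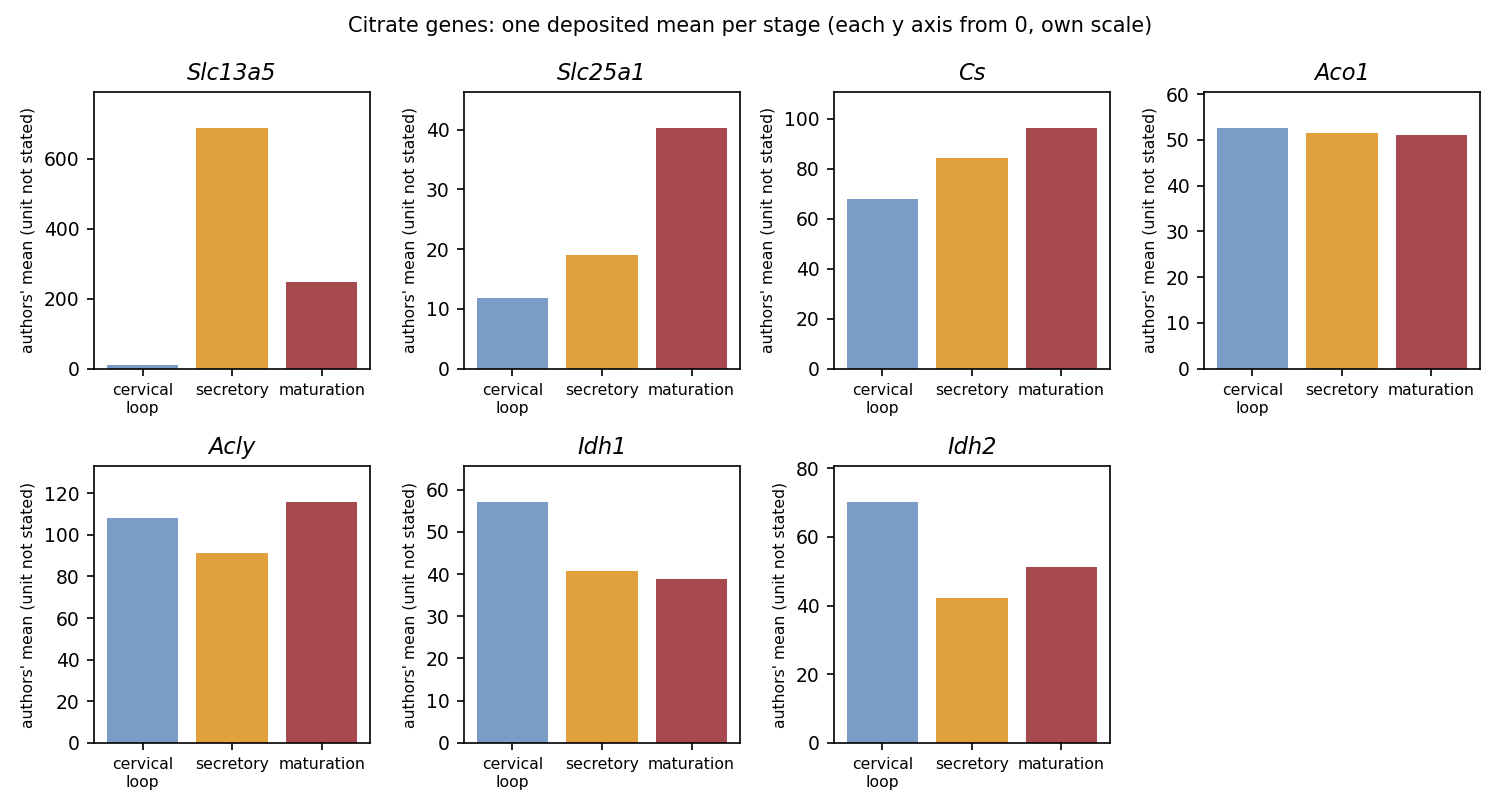
Bars give the authors' mean of each citrate gene (y axis, unit not stated, from 0, own scale per gene) in the cervical loop, secretory and maturation stages (x axis). There is 1 mean per stage and no error bar can be drawn. Slc13a5 stands at 11.5, 688 and 248, Slc25a1 and Cs step up from stage to stage, Idh1 and Idh2 are highest in the cervical loop, and the Aco1 bars are nearly level.

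Among the enzymes, citrate synthase changed little and steadily. Cs joins acetyl-CoA to oxaloacetate in the mitochondrion, which makes citrate. Its mean was 67.8 in the cervical loop, 84.3 in secretory cells and 96.4 in maturation cells in the authors' deposited table. Each step passed, 1.24-fold higher in secretory cells than in the cervical loop (FDR = 0.000460) and 1.14-fold up in maturation over secretory cells (FDR = 0.00102), in the authors' deposited table. Maturation cells were 1.42-fold higher than the cervical loop (FDR = 5.20e-05 in the authors' deposited table). Of all genes, 53.7% had a larger absolute log2 ratio for that pair, but 0.406% had a smaller p-value. The rise in Cs was thus small in size, with a p-value among the smallest of all genes.

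Aco1 encodes the cytosolic aconitase, which turns citrate to isocitrate and, without its iron-sulfur cluster, acts as an iron regulatory protein on messenger RNA. In the authors' deposited table its means were 52.6, 51.4 and 51.2 in the cervical loop, secretory and maturation stages. No pair of stages passed in the authors' deposited table. The FDR was 0.598 between secretory and cervical loop cells, 0.994 between maturation and secretory cells, 0.531 between maturation and cervical loop cells, and 0.732 in the overall test across stages. Its ratios lay so near 1 that their sign turned with the scaling.

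Acly encodes ATP citrate lyase, which splits cytosolic citrate into acetyl-CoA and oxaloacetate. In the authors' deposited table it stood at 108 in the cervical loop, 91.5 in secretory cells and 116 in maturation cells. The secretory mean was the lowest, but no pair of stages passed. Maturation was 1.26-fold higher than secretory (FDR = 0.0568) and secretory 1.18-fold lower than cervical loop (FDR = 0.145) in the authors' deposited table. The overall test across stages did not pass for Acly either (FDR = 0.0850 in the authors' deposited table). Of all genes, 67.2% passed that overall test.

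Idh1 and Idh2 encode the NADP-dependent isocitrate dehydrogenases, Idh1 of the cytosol and peroxisome and Idh2 of the mitochondrion, which use isocitrate to make NADPH. Both were highest in the cervical loop. Idh1 stood at 57.0, 40.7 and 38.8 in the cervical loop, secretory and maturation stages of the authors' deposited table. It was 1.40-fold lower in secretory cells (FDR = 0.0119) and 1.47-fold lower in maturation cells (FDR = 0.00366) than in the cervical loop, and the later stages did not differ beyond the test (38.8 in maturation and 40.7 in secretory cells, FDR = 0.604), in the authors' deposited table. With Benjamini-Yekutieli adjustment the secretory call of Idh1 was lost (FDR = 0.122, range between alternatives 0.0105 to 0.122). It was also lost at a threshold of 0.01 and with a fold of at least 1.5, and the maturation call of Idh1 against the cervical loop was lost with that fold.

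Idh2 stood at 70.1, 42.2 and 51.3 in the same order in the authors' deposited table. It was 1.66-fold lower in secretory cells (FDR = 0.00298) and 1.37-fold lower in maturation cells (FDR = 0.00870) than in the cervical loop in the authors' deposited table. Maturation cells stood 1.22-fold above secretory cells without passing (51.3 and 42.2, FDR = 0.0642 in the authors' deposited table). The maturation call of Idh2 against the cervical loop was lost with Benjamini-Yekutieli adjustment (FDR = 0.0896, range between alternatives 0.00787 to 0.0896).

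Counted together, the members split. Set against the cervical loop in the authors' deposited table, 3 of 7 rose in secretory cells (Slc13a5, Slc25a1, Cs), 2 fell (Idh1, Idh2) and 2 missed the threshold, and 41.8% of all genes passed. For maturation against cervical loop cells the counts were again 3 higher, 2 lower and 2 that did not pass, with 57.8% of all genes passing. For maturation against secretory cells, 2 rose (Slc25a1 and Cs), 0 fell and 5 did not pass, with 42.9% of all genes passing. At an unadjusted p below 0.05 in the authors' deposited table, 4 members were higher in maturation than in secretory cells and 0 lower. The exact share of all genes below that unadjusted p was not computed, here or for the lists below. For maturation against secretory cells, 46.0% of all genes had a smaller p-value than Idh2 (p = 0.0296 in the authors' deposited table). The share below 0.05 in either direction was therefore at least that large for this pair. With 7 genes, the counts of members were not tested against the background, and nothing particular to the members is read from them. The median log2 ratio of the members was -0.033, 0.094 and 0.19 in the order of these sentences, beside -0.14, -0.12 and 0.0032 over all genes.

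**Figure D2:**
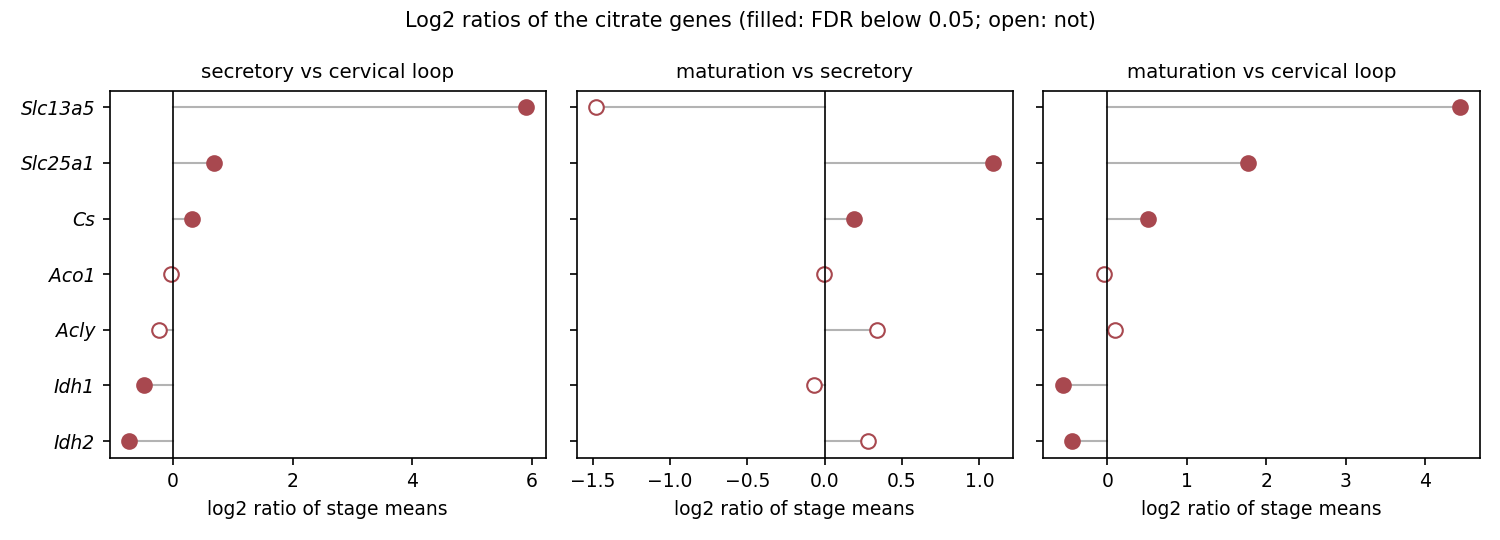
Points give the log2 ratio of stage means (x axis, own scale per panel) of each citrate gene (y axis), with secretory over cervical loop, maturation over secretory and maturation over cervical loop cells in the panels. Filled points passed at an FDR below 0.05 in the authors' deposited table, 5, 2 and 5 of 7 in the 3 panels, and Slc13a5 lies at 5.91, -1.47 and 4.43.

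The isoform tables held 2 of the members, Acly and Idh2. For neither gene did the make-up of transcripts change past the threshold in any pair of stages, the smallest FDR being 0.455 for Idh2 in maturation against cervical loop cells in the authors' deposited table. By the unadjusted p-values of the authors' deposited table the count was also 0. Of all genes there, 1.19% passed between secretory and cervical loop cells, 1.80% between maturation and secretory cells, and 2.79% between maturation and cervical loop cells. Single transcripts did pass. Acly-201 stood at 53.8 in maturation and 35.8 in secretory cells (FDR = 0.0330) and Acly-203 at 17.0 in maturation and 10.4 in secretory cells (ratio 1.64, FDR = 0.0448) in the authors' deposited table. Acly-202 stood at 46.1 in maturation and 42.5 in secretory cells (FDR = 0.632 in the authors' deposited table). Of all transcripts, 17.0% passed for that pair. In the comparison with the cervical loop, the deposited secretory means were 37.4 for Acly-201, 44 for Acly-202 and 12 for Acly-203. The secretory means of these transcripts thus differed between the isoform tables, and the ratios above hold only for the maturation against secretory table. Idh2-202 stood at 0.807 in maturation and 1.94 in cervical loop cells (2.40-fold lower, FDR = 0.0174), while Idh2-201 stood at 51.0 and 67.6 in those stages (FDR = 0.430), in the authors' deposited table. There 25.1% of transcripts passed. Between secretory and cervical loop cells neither Idh2 transcript passed in the authors' deposited table. Idh2-201 stood at 41.4 and 67.6 (FDR = 0.219) and Idh2-202 at 1.2 and 1.94 (FDR = 0.231), where 16.0% of transcripts passed. The falls of the Idh2 gene mean from the cervical loop thus had no passing call of Idh2-201 beside them in either later stage.

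By a fixed rule, the genes most like Slc13a5 were sought as those nearest to it in the plane of the secretory and maturation log2 ratios to the cervical loop, over 3 stages and 12462 genes with a mean of at least 1 in every stage. The nearest was Bnc1, which encodes a zinc finger protein of epithelia, at a distance of 1.04 log2 units. Its means were 3.93, 119 and 69.7 in the cervical loop, secretory and maturation stages of the authors' deposited table. Like Slc13a5, Bnc1 passed against the cervical loop in both later stages (FDR = 0.00135 for secretory and FDR = 0.00101 for maturation) and not between the later stages (FDR = 0.346), in the authors' deposited table. Other near genes were the sulfotransferase gene Chst8 (distance 1.80), AABR07031193.1 (1.88) and, farther off, Nxpe2 (2.36). Even the nearest gene lay more than 1 log2 unit away.

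**Figure D3:**
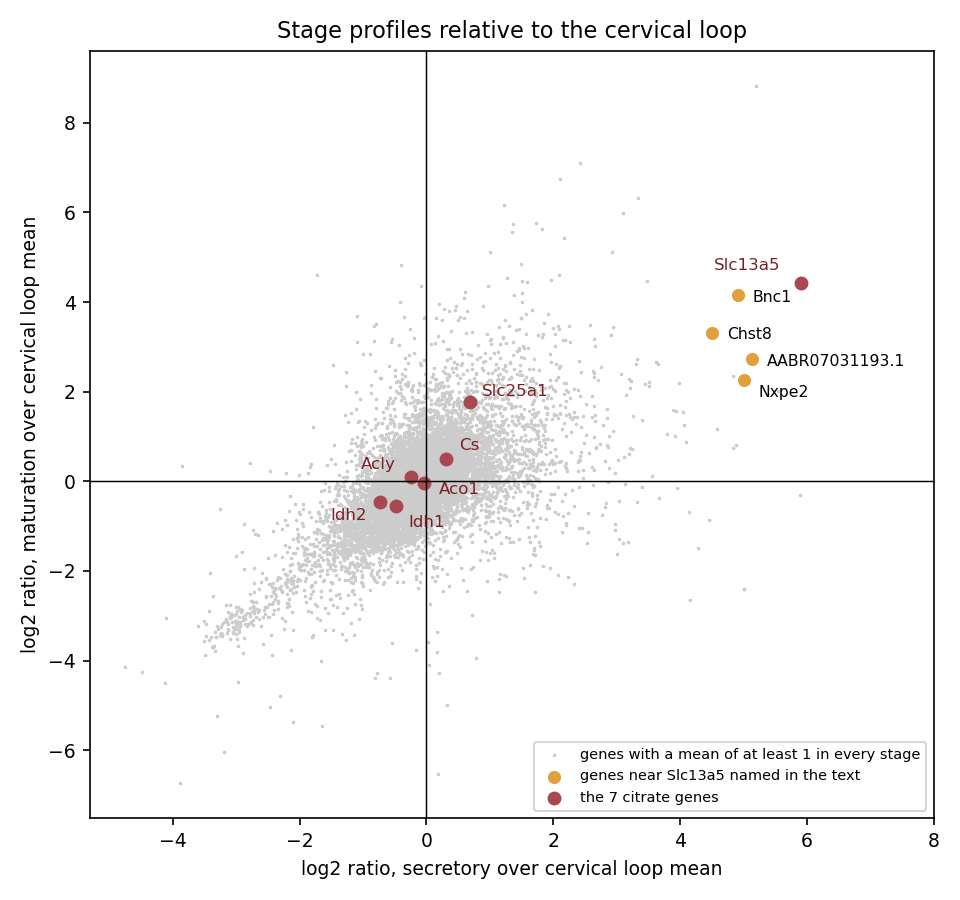
Each point is a gene, by its log2 ratio of secretory over cervical loop means (x axis) and of maturation over cervical loop means (y axis), for 12462 genes with a mean of at least 1 in every stage. Slc13a5 lies at 5.91 and 4.43 beside Bnc1, Chst8, AABR07031193.1 and Nxpe2 (orange), and the other 6 citrate genes (red) lie within the main cloud.

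Further genes around citrate were followed in 8 lists, of which 84 genes were measured, each counted once. Over these lists, 12 genes rose and 27 fell in secretory against cervical loop cells, 46 rose and 7 fell in maturation against secretory cells, and 34 rose and 20 fell in maturation against cervical loop cells, in the authors' deposited table. Of all genes, 16.5% were higher and 25.2% lower for the first pair, 21.8% higher and 21.1% lower for the second, and 24.1% higher and 33.7% lower for the third. These counts were not tested against those shares, and the lists were chosen with earlier results of these data known. Mdh2 and Slc25a11 stand in 2 lists each.

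Of 6 measured genes of the carrier list, 1 rose and 0 fell in secretory against cervical loop cells, and 1 rose and 1 fell in maturation against secretory cells, in the authors' deposited table. At an unadjusted p below 0.05 the secretory count was also 1 higher and 0 lower. Between maturation and cervical loop cells 2 rose and 1 fell in the authors' deposited table. Slc25a10, the mitochondrial dicarboxylate carrier, stood at 9.68, 15.7 and 11.7 in the cervical loop, secretory and maturation stages of the authors' deposited table. It was 1.63-fold higher in secretory than in cervical loop cells (FDR = 0.000452) and 1.34-fold lower in maturation than in secretory cells (FDR = 0.000854) in the authors' deposited table. Of the SLC13 relatives, Slc13a3, a dicarboxylate transporter, stood at 0.244, 0.386 and 0.500 over the stages and passed in no pair of the authors' deposited table. Slc13a2 was at the floor of 0.1 or less in the cervical loop and secretory stages and at 0.210 in maturation (FDR = 0.00255 against secretory cells in the authors' deposited table), and no fold is given. Ankh, which exports citrate and ATP from cells, stood at 52.7, 40.6 and 30.4 and was 1.73-fold lower in maturation than in the cervical loop (FDR = 0.00782) in the authors' deposited table.

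Of 16 measured genes of the rest of the tricarboxylic acid cycle, 2 rose, 4 fell and 10 did not pass in secretory against cervical loop cells, with a median log2 ratio of -0.12, in the authors' deposited table. That median was 0.017 when centred on the median of all genes. In maturation against secretory cells 11 rose, 0 fell and 5 did not pass, with a median log2 ratio of 0.39, in the authors' deposited table. At an unadjusted p below 0.05 the counts were 13 higher and 0 lower. Sdhb, a subunit of succinate dehydrogenase, stood at 43.0 in maturation and 27.0 in secretory cells (ratio 1.60, FDR = 0.000203 in the authors' deposited table). Mdh2, the mitochondrial malate dehydrogenase, stood at 62.6 in maturation and 49.0 in secretory cells (ratio 1.28, FDR = 0.00338 in the authors' deposited table). Idh3a, a subunit of the NAD-dependent isocitrate dehydrogenase, was singled out after its values were seen. It stood at 39.6, 35.2 and 110 over the stages, and maturation was 3.12-fold above secretory cells (FDR = 0.000824 in the authors' deposited table), where Idh1 and Idh2 did not pass for that pair. The other subunit genes of that enzyme did not rise as much. Idh3B stood at 29.7 in maturation and 21.1 in secretory cells (ratio 1.41, FDR = 0.00341 in the authors' deposited table). Idh3g stood at 23.3 and 24.0 in those stages and did not pass (FDR = 0.518 in the authors' deposited table). Dlst, the succinyltransferase of the oxoglutarate dehydrogenase complex, stood at 51.1, 114 and 147 and passed at each step (2.23-fold, FDR = 0.000474, and 1.29-fold, FDR = 0.00985, in the authors' deposited table). Ogdhl, which encodes a relative of the first enzyme of that complex, was lower in secretory than in cervical loop cells (3.90 and 9.74, log2 ratio -1.32, FDR = 0.00128 in the authors' deposited table).

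Of 16 genes that link pyruvate and other feeders to the cycle, 4 rose and 2 fell in secretory against cervical loop cells, and 8 rose and 1 fell in maturation against secretory cells, in the authors' deposited table (median log2 ratios -0.047 and 0.31). Centred on the median of all genes, the first was 0.09. Between maturation and cervical loop cells 9 rose and 3 fell in the authors' deposited table (median log2 ratio 0.21). Pc, pyruvate carboxylase, which makes the oxaloacetate that citrate synthase uses, stood at 9.83, 34.2 and 40.3 over the stages in the authors' deposited table. It was 3.48-fold higher in secretory than in cervical loop cells (FDR = 0.00271), and maturation did not pass against secretory cells (FDR = 0.245), in the authors' deposited table. Pdp2, a phosphatase that switches pyruvate dehydrogenase on, stood at 12.1, 26.5 and 55.3 and passed at each step (FDR = 0.00716 and FDR = 0.00875 in the authors' deposited table). Pdhb, a subunit of pyruvate dehydrogenase, stood at 47.0 in maturation and 25.5 in secretory cells of the authors' deposited table (1.84-fold higher, FDR = 0.000390). Pck2, which draws oxaloacetate out of the cycle, stood at 7.40 in maturation and 14.0 in secretory cells of the authors' deposited table (1.89-fold lower, FDR = 0.0226).

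The malate-aspartate shuttle carries reducing power into mitochondria with malate, the partner that Slc25a1 exchanges for citrate. Of its 7 genes, 0 rose and 1 fell in secretory against cervical loop cells, with 1 higher and 1 lower at an unadjusted p below 0.05, and 5 rose and 1 fell in maturation against secretory cells, in the authors' deposited table. Between maturation and cervical loop cells 5 rose and 1 fell in the authors' deposited table. The pair of aspartate-glutamate carriers moved in opposite directions. Slc25a12 stood at 14.1, 14.6 and 23.6 and Slc25a13 at 12.9, 7.13 and 5.51 over the stages in the authors' deposited table. In maturation against secretory cells Slc25a12 was 1.61-fold up (FDR = 0.000736) and Slc25a13 1.29-fold lower (FDR = 0.0457) in the authors' deposited table.

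**Figure D4:**
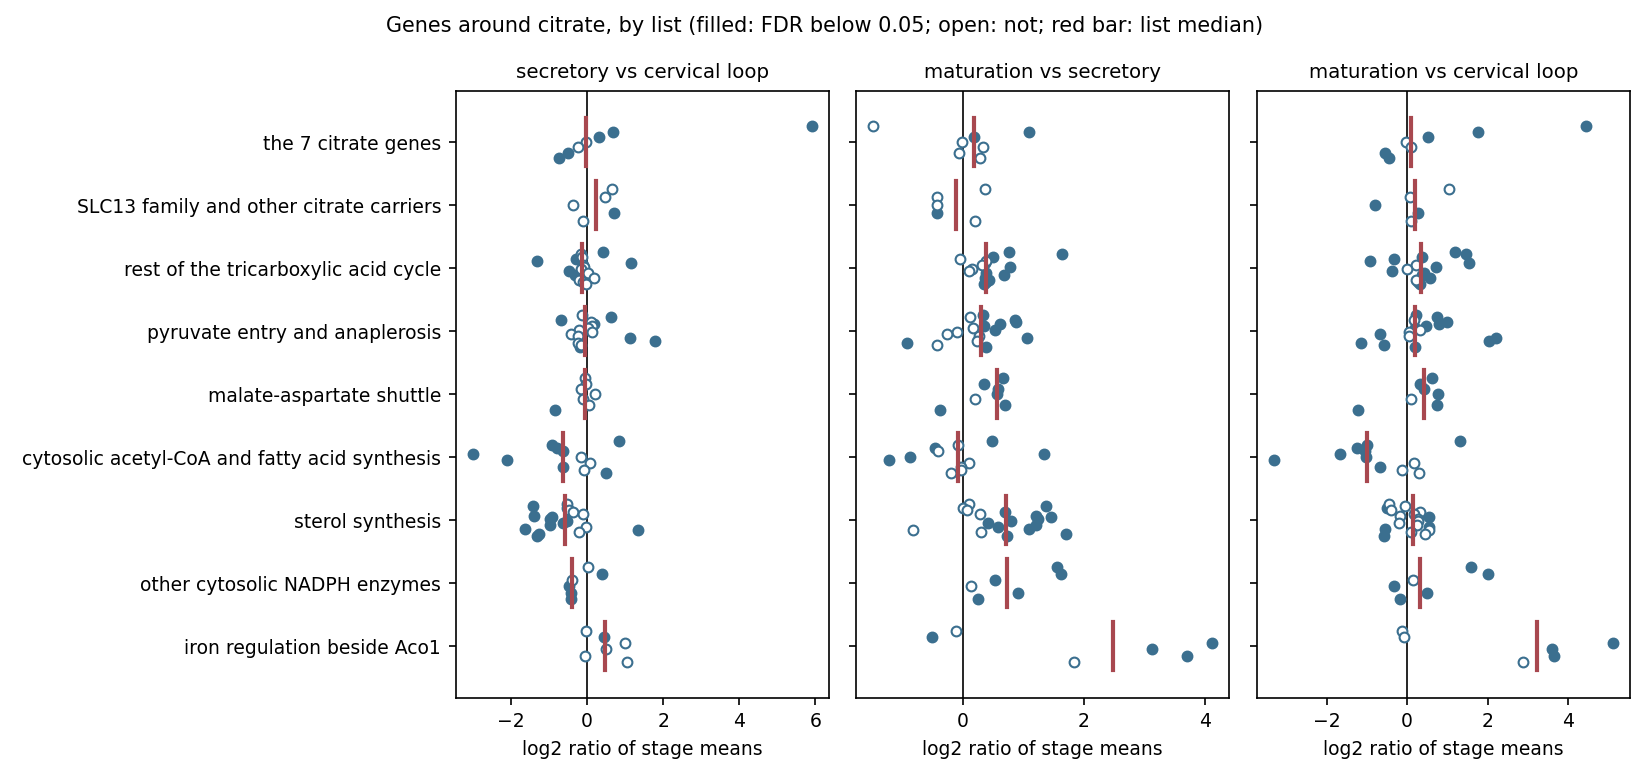
Points give the log2 ratio of stage means (x axis, own scale per panel) of each measured gene of a list (y axis), filled where the FDR in the authors' deposited table was below 0.05. Red bars are list medians, with means of 0.1 or less raised to 0.1; genes with such a mean have no point. For maturation against secretory cells the median of the tricarboxylic acid cycle list lies at 0.39 and that of sterol synthesis at 0.71, and for maturation against cervical loop cells that of fatty acid synthesis lies at -0.995.

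The acetyl-CoA that Acly releases is used for fatty acids and sterols. Of 11 measured genes of cytosolic acetyl-CoA and fatty acid synthesis, 2 rose, 6 fell and 3 did not pass in secretory against cervical loop cells, and 1 rose, 7 fell and 3 did not pass in maturation against cervical loop cells, in the authors' deposited table (median log2 ratios -0.63 and -0.995). Acaca, acetyl-CoA carboxylase, stood at 57.1, 30.2 and 28.6 over the stages, 1.89-fold lower in secretory than in cervical loop cells (FDR = 0.00110 in the authors' deposited table). Fasn, fatty acid synthase, stood at 177, 114 and 85.7 and was 2.06-fold lower in maturation than in cervical loop cells (FDR = 0.00148 in the authors' deposited table). Elovl6, which lengthens fatty acids, was 9.93-fold lower in maturation than in cervical loop cells (1.43 and 14.2, FDR = 0.000113 in the authors' deposited table). Acss2, which makes acetyl-CoA from acetate and so bypasses citrate, rose at each step (6.23, 11.2 and 15.6 over the stages, FDR = 0.00168 and FDR = 0.00942, in the authors' deposited table). Srebf1, a transcription factor of lipid synthesis, was 1.41-fold higher in secretory than in cervical loop cells (33.3 and 23.7, FDR = 0.0404 in the authors' deposited table).

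In sterol synthesis, with 18 genes, 1 rose, 11 fell and 6 missed the threshold in secretory against cervical loop cells, and 12 rose, 0 fell and 6 missed it in maturation against secretory cells, in the authors' deposited table (median log2 ratios -0.58 and 0.71; 12 higher and 0 lower at an unadjusted p below 0.05 for the second pair). Between maturation and cervical loop cells 2 rose, 3 fell and 13 missed the threshold in the authors' deposited table. Fdps, which makes farnesyl diphosphate, stood at 52.6, 27.6 and 76.0, and Fdft1, squalene synthase, at 51.3, 26.1 and 61.4 over the stages in the authors' deposited table. Maturation exceeded secretory cells 2.75-fold for Fdps (FDR = 0.000680) and 2.35-fold for Fdft1 (FDR = 0.00117) in the authors' deposited table. The lowest Acly mean also stood in the secretory stage, but Acly itself did not pass.

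Like Idh1, other enzymes supply NADPH or belong to pathways that do. Most of those listed are cytosolic, while H6pd works in the endoplasmic reticulum. Of 6 measured genes, 1 rose and 3 fell in secretory against cervical loop cells, and 5 rose and 0 fell in maturation against secretory cells (the same counts at an unadjusted p below 0.05 for the second pair), in the authors' deposited table. Between maturation and cervical loop cells 3 rose and 2 fell in the authors' deposited table. Me1, malic enzyme, stood at 47.8, 48.9 and 144 over the stages, and maturation was 2.95-fold above secretory cells (FDR = 0.000409 in the authors' deposited table).

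Genes of iron handling and its regulation were set beside Aco1. Of these 6, 3 rose, 1 fell (Fbxl5, which marks Ireb2 for degradation) and 2 missed the threshold in maturation against secretory cells of the authors' deposited table. Against the cervical loop, 1 rose and 0 fell in secretory cells, and 3 rose and 0 fell in maturation cells, of the authors' deposited table. Ireb2, the other iron regulatory protein, stood at 40.1, 39.5 and 36.6 over the stages and passed in no pair of the authors' deposited table. Tfrc, the transferrin receptor, and Ftl1, the ferritin light chain, passed between maturation and secretory cells. Tfrc stood at 3249 in maturation and 188 in secretory cells (17.3-fold higher, FDR = 0.000321) and Ftl1 at 675 in maturation and 51.9 in secretory cells (ratio 13.0, FDR = 0.000141) of the authors' deposited table.

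Lists of markers for neighbouring cell types were also read. Of all genes, 21.8% were higher and 21.1% lower in maturation than in secretory cells, and the marker counts were not tested against these shares. Of 7 measured skeletal muscle markers, 1 (Tnni1) passed in maturation against secretory cells, and their summed mean was 141 in maturation, 7.07 in secretory and 3.12 in cervical loop cells, with Mb and Tnni2 at the floor in the cervical loop, in the authors' deposited table. Of 7 myeloid markers, 5 rose in maturation against secretory cells, and their summed mean was 666 in maturation, 190 in secretory and 224 in cervical loop cells in the authors' deposited table. For 8 mesenchyme markers the summed mean was 13558, 10296 and 9848 in the same order, with 3 higher in maturation than in secretory cells. Levels of different genes cannot be compared here, so the sums are no measure of cell content. Each sum follows the genes with the largest means, in this list the collagens. Between secretory and cervical loop cells Col3a1 was higher, Vim and Pdgfra were lower, and the median log2 ratio of the list was -0.50. For 5 endothelial markers the sum was 300.5, 201 and 146, with 3 higher, and for 3 erythroid markers it was 537, 403 and 389, with 0 higher (1 at an unadjusted p below 0.05). For 8 odontoblast and bone markers the summed mean was 6722 in maturation, 5462 in secretory and 6099 in cervical loop cells, and without Col1a1, which the mesenchyme list also holds, it was 336, 245 and 481. Of the 8, 1 was higher and 1 lower in maturation than in secretory cells, with Dspp at the floor in maturation. For 5 adipocyte markers the sum was 25.5, 14.6 and 18.1, with 2 higher and 1 lower, and Adipoq at the floor in maturation. No other marker of these lists was at the floor. The part of these cells in the rises of Slc25a1, Cs and the genes of the other lists at maturation, Tfrc and Ftl1 included, was not tested. Nor was it tested for differences from the cervical loop, the falls of Idh1, Idh2 and the genes of fatty acid and sterol synthesis included.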

How the data were processed

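Libraries of rat enamel organ RNA, with an RNA integrity number of at least 7 and 1 cervical loop library left out under that limit, were sequenced as single-end reads of 75 bases, 25000000 per library, per the labels' protocols. The submitters' processing notes name STAR 2.5.3a, Partek and build rn6. What annotation, filters, normalisation or model terms were used is not given in the sources used here. The authors deposited, per the file headers, p-values, FDR, ratios and signed fold changes for each pair of stages, and least-squares means, which were handled as scores because their unit is unstated and 3 secretory means lie below 0. Fitted over genes, the deposited total was the sum of the stage means weighted by 3.99 (cervical loop), 3.99 (secretory) and 5.01 (maturation), near 4, 4 and 5 libraries. With 5 rats and only a cervical loop library left out, the labels would give 5 secretory libraries, so the numbers of libraries differ between these sources. No per-library values were used, and whether the authors' p-values rest on the spread between libraries or within rats is unknown.

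Benjamini-Hochberg adjustment of the deposited p-values was repeated for 16516 genes with a threshold of 0.05 (numpy 2.4.6, pandas 2.3.3, Python 3.11.15), which gave the authors' FDR. Adjustment was tested on simulated data. Means of 0.1 or less were treated as the floor. Alternatives were a threshold of 0.01, Benjamini-Yekutieli adjustment, leaving out genes with every mean below 1, a fold of at least 1.5, a pseudocount of 1, scaling to the 75th percentile or to the sum without the 10 largest genes, and the stage lists, which lie within 0.497% of the table for 16505 shared symbols. Centring on the median of all genes was chosen after seeing the data. Of 94 list entries 8 were not matched and are not analysed here, and 1 was matched ignoring case. From each list, direction and pair, up to 2 genes with the smallest p that passed could be named, beside 8 named whatever their values; not all were. The members and lists were chosen with earlier results of these data known. Some genes are not reported here.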

Additional observations from a re-analysis of the deposited data

How the results depend on the processing

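Under the alternatives run, no called member changed direction. Thresholds, adjustments, filters and the pseudocount keep direction by construction, so only the scalings, the centring and the stage lists could have changed it. For secretory against cervical loop cells, 5 members were called, and 3 with Benjamini-Yekutieli adjustment and 3 with a fold of at least 1.5. For maturation against secretory cells 2 were called, and 1 with that fold. For maturation against cervical loop cells 5 were called, and 2 with that fold, which removes small ratios by construction (Cs in every pair, Idh1 in both of its calls and Idh2 for maturation). Of 39 called genes of the other lists for secretory against cervical loop cells, Benjamini-Yekutieli adjustment left 19 and the fold 25. For maturation against secretory cells they left 33 and 32 of 53, and for maturation against cervical loop cells 35 and 31 of 54. A threshold of 0.01, under which Idh1 no longer passed for secretory against cervical loop cells, and the filter on low means kept all these totals within 1.5 times. At 0.01 the list genes split into 7 higher and 19 lower, 38 higher and 4 lower, and 28 higher and 11 lower in the 3 pairs, against 12 and 27, 46 and 7, and 34 and 20 at 0.05. Signs turned for uncalled ratios near 1. The log2 ratio of Aco1 was 0.10 for secretory and 0.083 for maturation against cervical loop cells when centred on the median of all genes, and 0.0011 for maturation against secretory cells when scaled to the 75th percentile. That of Acly for maturation against cervical loop cells was -0.042 when scaled to the sum without the 10 largest genes, a scaling that moved all ratios to the cervical loop by -0.13 for secretory and -0.14 for maturation cells. The stage lists, which hold nearly the same means, turned no sign, and a pseudocount of 1 cannot turn one. With isoform make-up, 0 members were called at either threshold. No paired analysis was possible because each stage holds 1 mean, and no replicate could be left out. Depth per gene is unknown, so no counting limit is given.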
